A study of Caenorhabditis elegans with 6 samples.

Results

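The genes examined are nuclear genes for the mitochondrial ribosome and the respiratory chain of Caenorhabditis elegans. They were picked by symbol from the table of normalized counts: symbols starting mrpl- or mrps- followed by a number, symbols starting nuo-, atp-, cox-, ucr-, cyc-, sdha-, sdhb- or sdhd-, and the genes gas-1, isp-1 and mev-1. This gave 108 genes of the 41862 features in the table, of which 106 had a mean of at least 10 normalized counts over the 6 libraries and were tested among 17900 features that met that minimum. Of the 108 genes, 67 encode proteins of the mitochondrial ribosome, 42 of the large and 25 of the small subunit, and 41 belong to the respiratory chain, 8 of them as assembly factors of complex IV. The name rule covers only 7 genes of complex I, and subunits that carry other names were not counted as members.

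The RNA came from nuclei of neurons, pulled down from synchronized L1 larvae. L1 is the stage at which the worm hatches. The mutant group was strain OH17055, which carries the INTACT transgene UPN together with null alleles of 6 CUT homeobox genes (ceh-44, of the CUX type, and the ONECUT genes ceh-48, ceh-41 and ceh-38 together with ceh-39 and ceh-21), and the control group was strain OH16748, which carries the same transgene (otIs790) in a wild-type background. INTACT tags the nuclear envelope of chosen cells so that their nuclei can be immunoprecipitated. Both groups thus carry the tag, each had 3 libraries, and each mutant library is of the same strain. The labels do not say whether the replicates came from separate cultures, so p-values measure the spread between these libraries, which may be technical.

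Mitochondria keep a small genome of their own, and nearly all of their proteins are encoded in the nucleus, made in the cytosol and imported. The mitochondrial ribosome, built from nuclear-encoded proteins around RNA made in the organelle, translates the few core subunits of the respiratory chain that the mitochondrial genome encodes. Complexes I to IV pass electrons from NADH and succinate to oxygen, and complexes I, III and IV pump protons. The ATP synthase uses the proton gradient to make ATP, on which synaptic transmission depends. The measurement here is of RNA in nuclei and so of nuclear transcripts, not of protein or of mitochondrial RNA. Genes encoded by the mitochondrial genome itself were not analysed here.

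The recovered depth was 15500882 to 20844986 reads in mutant libraries and 18768796 to 20352179 reads in control libraries. Of the 6 targeted genes, 5 were lower in every mutant library than in any control library. Mutant replicate 2 held more of ceh-21 and ceh-39, at 48 and 43.9 normalized counts, than the other mutant libraries, at 0 to 5.06, while control libraries had 769 to 1098 of these genes. The sixth, ceh-44, was higher, at 16831 ± 1927 normalized counts in mutants and 9563 ± 1645 in controls (SD, n = 3 each), so its RNA does not check the label. Neuronal marker genes were the highest of the marker lists, with a mean log2 level of 13.39 to 14.04 in mutant libraries and 14.04 to 14.43 in control libraries. Muscle markers followed, at 12.64 to 12.91 in mutants and 12.52 to 12.96 in controls, so transcripts of another tissue were also present. Mutant replicate 2 had the lowest neuronal level and the highest cytosolic ribosomal protein level of the 6 libraries.

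Most of the mitochondrial ribosome and respiratory chain genes were somewhat higher in mutant nuclei, but few passed the test. Of the 106 tested, 91 had a positive and 15 a negative log2 difference (mutant minus control, on log2 of the normalized count plus 1), where 48.8% of all genes tested had a positive one. Their median was 0.32, against −0.02 over all genes tested and 0.03 over the 14482 tested protein-coding genes. Past a limma Benjamini-Hochberg adjusted p of 0.05 over all genes tested, 7 rose and 0 fell. Of all genes tested 7.56% rose and 10.5% fell, so the 6.60% of the mitochondrial genes that rose is close to the background. At an unadjusted p under 0.05, 23 were higher and 0 lower, against 15.8% and 19% of all genes. In 36 of the 106 (34.0%) every mutant library lay above every control library, against 19.5% of all genes tested, and in 0 did every mutant library lie below every control library, against 20.4% of all genes.

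The count of calls was not stable. With the replicate number as a block, 13 genes rose and 0 fell, where 11.1% of all genes rose and 15.2% fell (26.3% together). edgeR called 12 higher and 0 lower, against 8.84% and 9.65% of all genes, on reads recovered from the normalized values, 100% of which came out whole to within 0.01 reads. DESeq2 called 15 higher and 0 lower, against 11.2% and 12.4% of all genes. Without control replicate 3 no gene passed (0 of 106, with 22 at an unadjusted p under 0.05). The count was 1 without control replicate 2 or mutant replicate 3, 2 without control replicate 1, 4 without mutant replicate 2 and 8 without mutant replicate 1. Calls over all 17900 genes changed as well. Of these, 1353 rose with all 6 libraries, 637 without control replicate 3, 639 without control replicate 2 and 543 without mutant replicate 3. The number was 615 without control replicate 1, 1170 without mutant replicate 2 and 1603 without mutant replicate 1. Under scaling to equal totals, which moved the median of all genes by 0.17, 19 of the mitochondrial genes rose and 0 fell. Of all genes, 11.8% rose and 7.58% fell under that scaling. The median of the mitochondrial genes relative to that of all genes was 0.34, as it was with the deposited scaling. The count of genes with every mutant library above every control was 39 after centring on the median gene, 44 under quantile normalization and 57 under equal totals, against 20.3%, 20.9% and 25.1% of all genes.

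**Figure D1:**
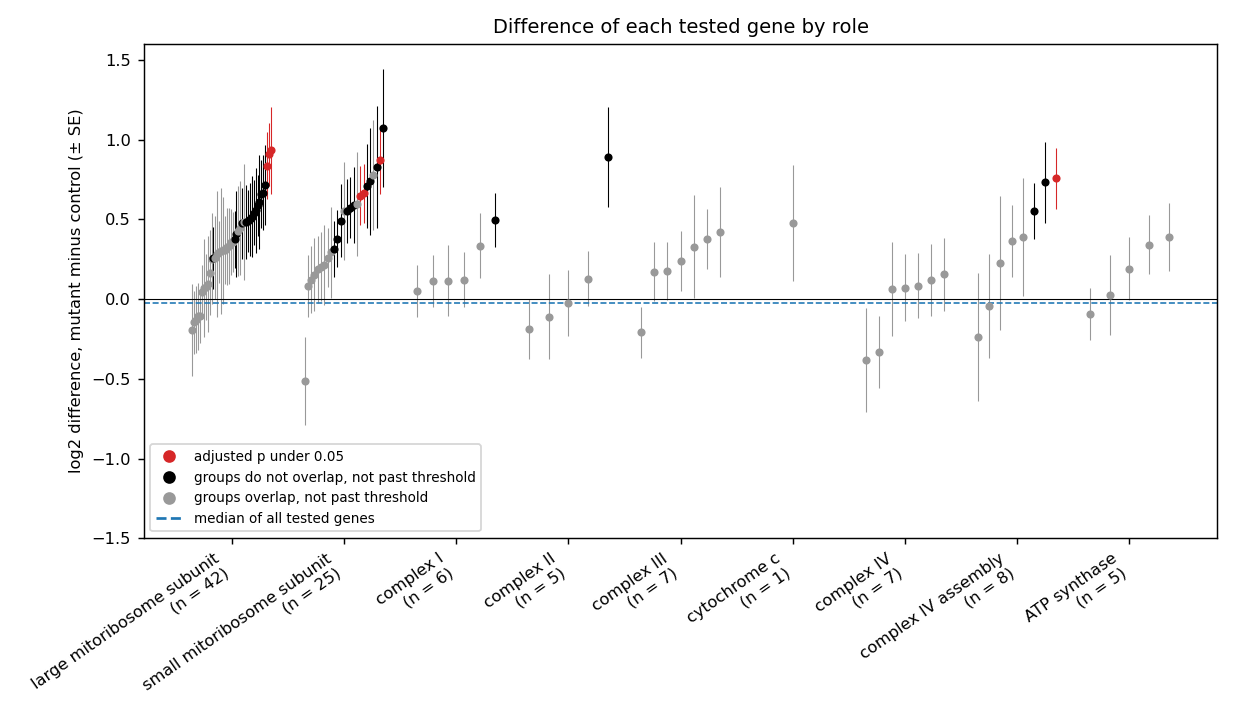
Log2 difference (mutant minus control, on log2 of the normalized count plus 1) with its standard error for each tested gene, in columns by role and ordered by size within a column. Red points passed an adjusted p of 0.05, black points had groups that did not overlap, and the dashed line is the median of all tested genes at −0.02. The 7 red points are 6 mitochondrial ribosome genes and 1 complex IV assembly gene.

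The proteins of the small subunit of the mitochondrial ribosome showed the largest median difference of the roles with more than 1 tested gene. Of its 25 genes 24 had a positive difference, with a median of 0.55 and a range from −0.51 to 1.07. Of these 25, 3 rose (12%), where 7.56% of all genes tested rose. The large subunit had 37 of 42 genes with a positive difference, a median of 0.36 and a range from −0.20 to 0.93. Of these 42, 3 rose (7.14%), close to the share of all genes. Every mutant library lay above every control library for 13 genes of the small and 18 of the large subunit, or 31 of the 67 (46.3%), against the 19.5% of all genes given above.

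The gene with the smallest adjusted p was mrpl-28, for a protein of the large subunit. It had 313, 447 and 386 normalized counts in mutant replicates 1, 2 and 3, against 191, 220.1 and 194 in control replicates 1, 2 and 3. All mutant libraries were above all control libraries, and the mean was 1.90 times as high. On the log2 scale the gene differed by 0.91 (SE 0.20, limma adjusted p 0.0145 by Benjamini-Hochberg). In the annotation mrpl-28 overlaps T25D3.3 on the opposite strand, which was low, at 20.8 ± 12.5 normalized counts in mutants and 6.50 ± 1.28 in controls (SD, n = 3 each).

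The other large-subunit genes that rose were mrpl-46 and mrpl-17. Counts of mrpl-46 were 337, 320.2 and 264 in the mutant libraries, against 195, 178 and 143 in the control libraries, with replicate 1 the highest and replicate 3 the lowest of each group. The difference was 0.84 (SE 0.21, limma adjusted p 0.0229). Counts of mrpl-17, the lowest of the calls, were 89.7, 111 and 88.6 in the mutant libraries, against 49.0, 61.5 and 40.8 in the control libraries. The groups stood apart, with a difference of 0.93 (SE 0.27, limma adjusted p 0.0406).

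Of the small subunit, mrps-15, mrps-22 and mrps-31 rose. Counts of mrps-15, a ribosomal protein with a bacterial counterpart, were 202, 271 and 223 in mutants, against 142, 117 and 119 in controls, a difference of 0.87 (SE 0.21, limma adjusted p 0.0215). In the annotation it overlaps hbs-1 on the same strand, which was not analysed here. Counts of mrps-22, a protein that bacterial ribosomes lack, were 349, 375 and 369 in mutants, against 216, 266 and 211 in controls. The mutant libraries lay close together and above every control, with a difference of 0.66 (SE 0.18, limma adjusted p 0.0339). Counts of mrps-31, the highest of the 7 before any correction for length, were 439, 571 and 448 in mutants, against 301, 338 and 285 in controls, a difference of 0.65 (SE 0.19, limma adjusted p 0.0375).

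The remaining call was cox-15, whose product takes part in making heme A, the cofactor of cytochrome c oxidase. It had 325, 408 and 319.9 normalized counts in mutants, against 188, 215 and 216 in controls. The difference was 0.76 (SE 0.19, limma adjusted p 0.0242), and the groups stood well apart. The gene overlaps T06D8.2 on the opposite strand. T06D8.2 fell, to 457 ± 30.0 normalized counts in mutants, against 721 ± 108 in controls (SD, n = 3 each, limma adjusted p 0.0329). Whether the counting used strand is not given in the sources used here, so reads of such overlapping pairs may not have been kept apart.

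Across the 7 genes that rose, means were 1.58 to 1.91 times as high in mutants, and adjusted p was 0.00820 to 0.0311 with the replicate block. No gene of the 7 passed in each of the fits that left out a single library. The most stable, mrpl-46, passed in 4 of 6 such fits, with a largest adjusted p of 0.0849, while mrps-22 and mrps-31 passed in 1 each and mrpl-17 in 0.

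**Figure D2:**
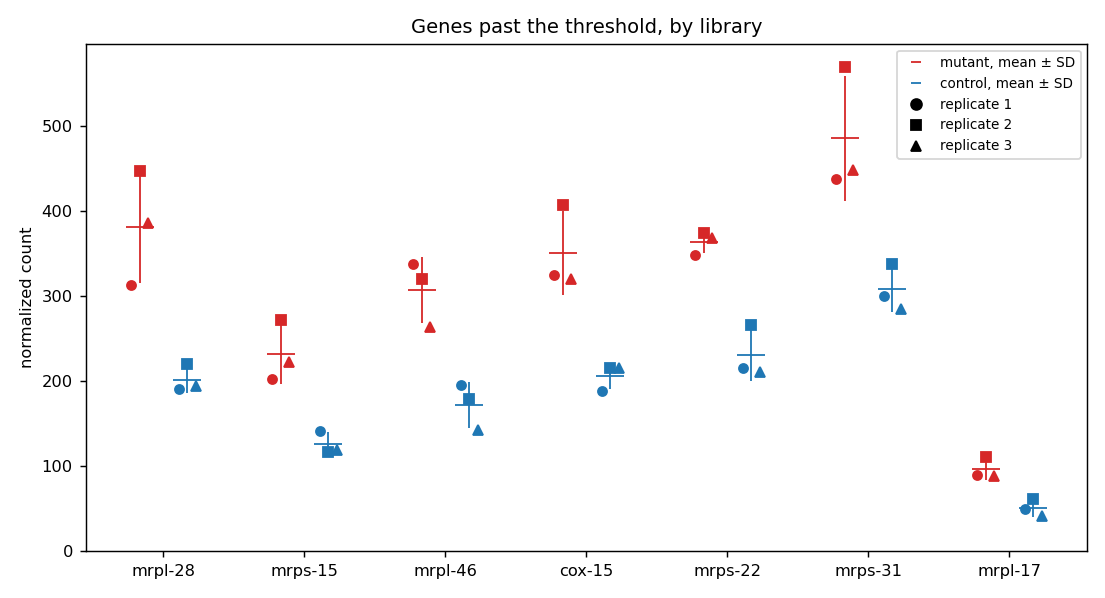
Normalized counts of the 7 genes past the threshold in each library, with mutant libraries to the left of control libraries for each gene. Symbols mark the replicate number, and bars the mean and SD of 3 libraries. For every gene the lowest mutant library lies above the highest control library, and mutant replicate 2 is the highest mutant library for each gene except mrpl-46.

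A further 6 genes passed with the replicate block but not in the main limma fit. Their differences were 0.50 to 1.07, with limma adjusted p of 0.0538 to 0.0711 without the block and 0.0199 to 0.0476 with it. They were mrpl-9, mrpl-44, mrps-10 and mrps-30 of the mitochondrial ribosome, cox-10, which acts one step before cox-15 in making heme A, and nuo-5, a core subunit of complex I. The gene mrps-10 had the largest difference of all members, 1.07 (SE 0.37, limma adjusted p 0.0711, and 0.0416 with the block), at 61.9, 83.7 and 69.2 normalized counts in mutants and 19.6, 38.6 and 48.5 in controls. Its groups did not overlap, but the control libraries spread widely for so low a count. Counts of cox-10 were tightly grouped, at 325, 337 and 344 in mutants and 221, 243 and 222 in controls. All of these 6 genes except mrps-10 were also called by edgeR, by DESeq2, and under quantile normalization and equal totals.

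The highest mitochondrial ribosome genes by normalized count did not pass. Counts of mrpl-37 were 853 ± 85.9 in mutants and 829 ± 99.6 in controls, and those of mrpl-38 were 925 ± 153 in mutants and 709 ± 61.5 in controls (SD, n = 3 each), with limma adjusted p of 0.879 and 0.164. In the small subunit, mrps-5 had 844 ± 147 normalized counts in mutants and 671 ± 17.4 in controls, and mrps-11 had 697 ± 163 in mutants and 607 ± 94.5 in controls (SD, n = 3 each), with limma adjusted p of 0.230 and 0.559. The largest negative difference was that of mrps-12, −0.51 (SE 0.28, limma adjusted p 0.216). It had 172, 112 and 91.2 normalized counts in mutants and 140.5, 185 and 199 in controls, so mutant replicate 1 lay within the control range. Over the 15 genes with a negative difference, adjusted p ran from 0.216 to 0.946.

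The respiratory chain without the assembly factors had 31 tested genes, of which 24 were positive, with a median of 0.12, and 0 passed the test in either direction. Of all genes tested 7.56% rose and 10.5% fell. At an unadjusted p under 0.05, 2 of the 31 were higher and 0 lower, against 15.8% and 19% of all genes. edgeR and the block fit called 1 each higher, against 8.84% and 11.1% of all genes. In 2 of the 31 (6.45%) every mutant library lay above every control library, against 19.5% of all genes. Per kilobase of exon in the annotation, the ATP synthase genes atp-2 and atp-1, which encode the catalytic beta and the alpha subunit of the F1 part, had the highest level of the 107 members with a length. Per kilobase, atp-2 had 10077 normalized counts in mutants and 8916 in controls, and atp-1 had 7029.6 in mutants and 5477 in controls. In whole counts, atp-2 had 20299, 20382 and 17637 in mutants and 17477, 13885 and 20237 in controls, a difference of 0.19 (SE 0.20, limma adjusted p 0.527). For atp-1 the counts were 15547, 13926 and 13358 in mutants and 11844, 8113 and 13416 in controls, a difference of 0.39 (SE 0.21, limma adjusted p 0.227). For both genes control replicate 2 was the lowest library and control replicate 3 lay within the mutant range.

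The level of the members varied widely per kilobase. By median, the large ribosomal subunit had 234 normalized counts per kilobase in mutants and 183 in controls, and the small subunit 246 in mutants and 169 in controls. The ATP synthase genes had a median of 3052 per kilobase in mutants and 2434 in controls, and the complex IV subunits 1651 in mutants and 1945 in controls. The complex IV assembly factors were lower than either ribosomal subunit, at 119 in mutants and 97.9 in controls.

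Complex I takes electrons from NADH. All 6 of its tested genes had positive differences, from 0.05 to 0.50, with a median of 0.12. The highest by count were nuo-5 and nuo-1. Counts of nuo-5 were 4735, 5982 and 4386 in mutants and 3490.1, 3472 and 3661 in controls, the complex I gene whose groups did not overlap, with a difference of 0.50 (SE 0.17, limma adjusted p 0.0691, and 0.0363 with the block). Counts of nuo-1, which binds NADH and FMN, were 2356, 3665 and 2337 in mutants and 2043, 2063 and 2393 in controls (limma adjusted p 0.270), with mutant replicate 2 far above the rest. The core subunit gas-1, known for the anaesthetic sensitivity of its mutants, differed by 0.05 (limma adjusted p 0.852).

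Complex II, succinate dehydrogenase, links the chain to the TCA cycle. It was the role with a median at about that of all genes, −0.02 over 5 genes. Its flavoprotein gene sdha-1 had 1519 ± 278 normalized counts in mutants and 1724 ± 238 in controls, its iron-sulfur gene sdhb-1 had 1183 ± 113 in mutants and 1084 ± 139 in controls, and its cytochrome b gene mev-1 had 717 ± 160.2 in mutants and 723 ± 109 in controls (SD, n = 3 each). None of these differences passed, with limma adjusted p of 0.505, 0.621 and 0.946. The second flavoprotein gene, sdha-2, was much lower per kilobase, at 35.7 in mutants and 18.9 in controls, against 633 in mutants and 718 in controls for sdha-1. Its 61.9, 94.3 and 61.6 normalized counts in mutants lay above the 45.7, 39.6 and 30.1 in controls, with a limma adjusted p of 0.0744. Reads shared between these paralogs could have been split or dropped.

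In complex III, which passes electrons to cytochrome c, 6 of 7 genes were positive, with a median of 0.24 and 0 calls. The Rieske iron-sulfur gene isp-1 had 3028 ± 427 normalized counts in mutants and 2687 ± 455 in controls, and the core gene ucr-2.1 had 2327 ± 191 in mutants and 2693 ± 305 in controls (SD, n = 3 each), with limma adjusted p of 0.524 and 0.383. The paralogs of ucr-2.1 stood the other way round, with ucr-2.2 at 668 ± 72.7 in mutants and 517 ± 83.6 in controls (SD, n = 3 each, limma adjusted p 0.179). The cytochrome c gene cyc-2.1 had 1510.4, 3616 and 1387 normalized counts in mutants and 1142, 1187 and 2069.7 in controls. A single library stood far above its group on each side, mutant replicate 2 and control replicate 3, and the limma adjusted p was 0.372. Without mutant replicate 2 the difference of the gene was 0.04.

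Complex IV, cytochrome c oxidase, was listed as subunits and assembly factors. Its 7 subunit genes had a median of 0.07, 5 positive and 0 calls. The highest by count were cox-4, at 3018 ± 531 normalized counts in mutants and 2862 ± 612 in controls, and cox-5A, at 2935 ± 881 in mutants and 2648 ± 459.6 in controls (SD, n = 3 each), with limma adjusted p of 0.795 and 0.730. The 8 assembly genes had a median of 0.38, with 1 call, where 7.56% of all genes tested rose. In 3 of the 8 (cox-10, cox-11 and cox-15) every mutant library lay above every control library, against 19.5% of all genes. Of these, cox-11, which delivers copper to the enzyme, had 144, 116 and 114 normalized counts in mutants and 57.7, 81.4 and 87.4 in controls (limma adjusted p 0.0745). The difference between subunits and assembly genes was not tested.

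The genes just inside and outside the minimum mean were cox-16, nuo-3 and cyc-2.2. The lowest tested gene, cox-16, had 21.7 ± 7.55 normalized counts in mutants and 25.2 ± 5.30 in controls (SD, n = 3 each). The complex I gene nuo-3 had 3, 3 and 7 reads in the mutant libraries and 2, 2 and 4 in the control libraries, at or close to the floor of 3 reads. The second cytochrome c gene, cyc-2.2, had 0, 0 and 1 reads in mutants and 0, 2 and 1 in controls. A level under 3 reads, which is 2.44 to 3.79 normalized counts in mutant libraries and 2.91 to 3.27 in control libraries, was not detectable at this depth, a limit that covers counting error only.

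**Figure D3:**
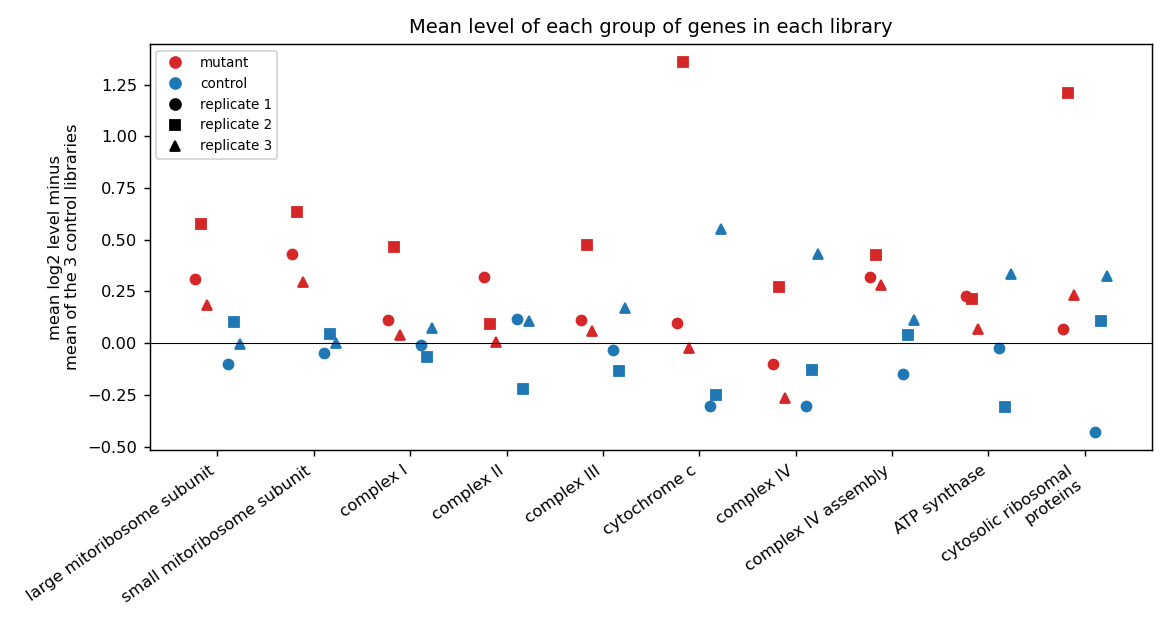
Mean log2 level of the tested genes of each role in each library, minus the mean of the 3 control libraries, with cytosolic ribosomal protein genes for comparison. Mutant libraries are red and stand left of the blue control libraries, and symbols mark the replicate number. All mutant libraries lie above all control libraries for both subunits of the mitochondrial ribosome and for the complex IV assembly genes, whereas for the complex IV subunits control replicate 3 is the highest library.

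The libraries did not contribute equally. Mutant replicate 2 was the highest of the mutant libraries for 76 of the 106 genes (71.7%), against 37.9% of all genes tested, and mutant replicate 3 was the highest for 6. Without mutant replicate 2 the median difference was 0.21 over the members, 0.29 over the mitochondrial ribosome and 0.05 over the respiratory chain, in place of 0.32, 0.38 and 0.16. In the same library the neuronal marker list was lowest, as stated above, and its part in these values was not tested. Among controls, replicate 3 was the highest for 49 of the 106 genes and replicate 1 the lowest for 49. The median coefficient of variation of a member was 17.8% among mutant libraries and 15.7% among control libraries.

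The distance between the mitochondrial ribosome and the chain within a library varied less among the mutants than among the controls. The mean log2 level of the ribosome genes minus that of the chain genes was −1.77, −1.74 and −1.78 in mutant replicates 1, 2 and 3, against −1.96, −1.77 and −2.19 in control replicates 1, 2 and 3. Control replicate 2 lay within the mutant range and control replicate 3 farthest from it. In summed normalized counts, the 67 ribosome genes had 17343, 20808 and 15832 in mutants and 13198, 14962 and 13732 in controls, so every mutant library was above every control. The chain genes had 77919, 86538 and 70090.0 in mutants and 65994, 58201 and 80500 in controls, and control replicate 3 lay above mutant replicates 1 and 3.

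Libraries of the same group differed by gene length, control replicates 1 and 3 in opposite directions. For the 21 tested members with under 600 bp of exon, the log2 level in control replicate 3 was a median of 0.45 above the mean of the other controls. For the 30 members with at least 1200 bp this median was −0.00. Over all tested protein-coding genes the corresponding medians were 0.32 for 1405 short and −0.03 for 8385 long genes. The members that show this most include cox-7C, a small subunit of complex IV, with 343, 368 and 815 normalized counts in control replicates 1, 2 and 3 and 469, 325 and 305 in the mutant libraries. The short large-subunit gene mrpl-36 likewise had 54.4, 51.1 and 147 in controls, against 85.9, 113 and 79.3 in mutants. Control replicate 1 had medians of −0.45 for short and −0.02 for long members, against −0.21 and 0.05 over all tested protein-coding genes. Mutant replicate 2 had medians of 0.59 for short and 0.32 for long members, against 0.26 and −0.05 over all. In that library the long members thus stood higher than long genes at large. Across the 105 tested members with a length, the excess of control replicate 1 correlated with log2 exon length at a Pearson r of 0.38, that of control replicate 3 at −0.30 and that of mutant replicate 2 at −0.15, as a description over genes that share a library and are not replicates.

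By exon length, 5 of the 30 tested members with at least 1200 bp rose, against 10.7% of all tested protein-coding genes of that length, and 28 were positive, with a median difference of 0.38. Of the 54 members from 600 to under 1200 bp 2 rose, against 5.78% of all, with a median of 0.26. Of the 21 shorter members 0 rose, against 3.63% of all, with a median of 0.29. The differences between these classes rest on 7 calls and were not tested. 

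**Figure D4:**
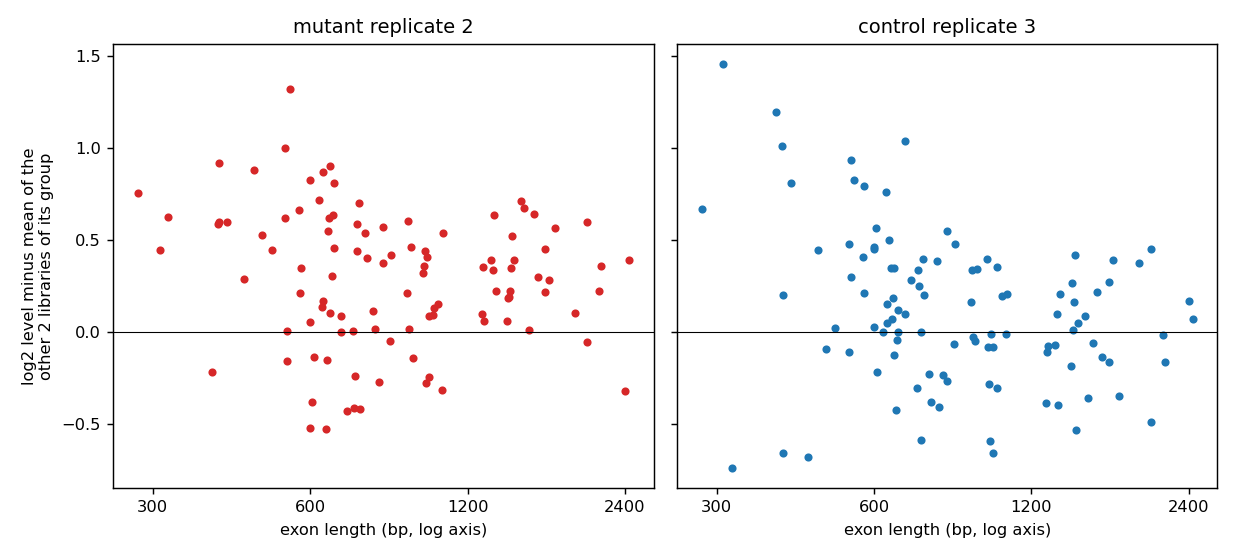
Log2 level of each tested member in mutant replicate 2 and in control replicate 3, minus the mean of the other 2 libraries of its group, against exon length in base pairs on a log axis. Each point is a gene. In control replicate 3 the members under 600 bp have a median excess of 0.45 and those of at least 1200 bp of −0.00. In mutant replicate 2 the medians are 0.59 and 0.32, against 0.26 and −0.05 over all tested protein-coding genes.

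A compact genomic setting, which the name rule did not use, was more frequent among the members than among all tested protein-coding genes. In the annotation of WBcel235, 42 of 105 tested members (40%) had another protein-coding gene next upstream on the same strand within 500 bp or overlapping them, as genes in worm operons do, against 21.1% of 14482 tested protein-coding genes. The median difference of these 42 was 0.38, and that of the other 63 members 0.26. Over all tested protein-coding genes the medians were 0.19 with such a neighbour and −0.02 without. Chromosome III held 28.6% and chromosome I 24.8% of the tested members, against 14.9% and 15.2% of the tested protein-coding genes, and the X chromosome held 3.81% against 14.7%. Members on the X numbered 4, with a median of −0.07, where the 2134 tested X-linked protein-coding genes had a median of −0.25.

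Some close neighbours are related in function. The gene mrps-22 lies 105 bp downstream of dap-3, which encodes another protein of the small mitochondrial subunit. Counts of dap-3 were 276, 349 and 296 in mutants and 216, 217 and 214 in controls, so all mutant libraries were higher, with a difference of 0.50 (SE 0.19, limma adjusted p 0.0863). The gene cox-15 lies 99 bp downstream of cchl-1, which encodes the enzyme that attaches heme to cytochrome c, and cchl-1 differed by 0.24 (SE 0.18, limma adjusted p 0.366). The member pair mrps-2 and mrpl-4 lies 105 bp apart, with differences of 0.12 and 0.49 (limma adjusted p 0.713 and 0.104). The cytochrome c gene cyc-2.1 lies 110 bp downstream of the cytosolic ribosomal gene rpl-20, which also had its highest count in mutant replicate 2, at 3741, 5789 and 3907 in mutants and 2463, 3504 and 4333 in controls (limma adjusted p 0.281). These neighbours were chosen after their positions and values were seen.

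Genes for the transcription and translation factors of mitochondria, which work with the mitochondrial ribosome, held several calls. Of 12 tested genes on that list 6 rose and 0 fell, with a median difference of 0.63, and in 8 every mutant library lay above every control, where 7.56% of all genes rose and 19.5% lay above. The mitochondrial RNA polymerase gene rpom-1 had 1033, 1613 and 1145 normalized counts in mutants, against 664, 748 and 685 in controls, a difference of 0.83 (SE 0.20, limma adjusted p 0.0188). The elongation factor Tu genes tufm-2 and tufm-1 differed by 0.90 and 0.69 (limma adjusted p 0.0199 and 0.0231). The elongation factor gene gfm-1 and the mitochondrial aminoacyl-tRNA synthetase genes iars-2 and fars-2 also rose. The count of genes that rose was 5 without mutant replicate 1 or 2, 1 without mutant replicate 3, and 0 without any single control replicate. The single-stranded DNA-binding protein gene mtss-1 was the gene with a negative difference, −0.16 (limma adjusted p 0.711).

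The other mitochondrial lists gave fewer calls. Of all genes tested 7.56% rose and 10.5% fell, and in 19.5% every mutant library lay above every control library. Of 14 tested import genes 1 rose, the outer-membrane receptor gene tomm-70, at 769 ± 78.2 normalized counts in mutants and 479 ± 50.6 in controls (SD, n = 3 each, limma adjusted p 0.0238), and 13 were positive. Of 8 genes of ubiquinone synthesis, which makes the carrier between complexes I, II and III, 2 rose, coq-8 with a difference of 0.70 and coq-5 with 1.02 (limma adjusted p 0.0190 and 0.0368). Both tested complex I assembly genes, nuaf-1 and nuaf-3, had groups that did not overlap, with limma adjusted p of 0.0836 and 0.0890. Of 19 genes of the TCA cycle and pyruvate dehydrogenase 0 rose and 0 fell, in limma. At an unadjusted p under 0.05, 4 of the 19 were higher and 0 lower, against 15.8% and 19% of all genes. edgeR and DESeq2 called 0, against 18.5% and 23.6% of all genes in either direction. With the block 3 rose, against 11.1% of all genes.

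Genes of the mitochondrial stress response went in both directions. Of 14 tested, 3 rose and 2 fell, where 7.56% of all genes tested rose and 10.5% fell. The genes that rose were phb-2, for a prohibitin of the inner membrane, dnj-10, for a mitochondrial DnaJ chaperone, and spg-7, for an inner-membrane protease, with differences of 0.68, 0.82 and 0.58 (limma adjusted p 0.0226, 0.0345 and 0.0474). The genes that fell were dve-1, a homeobox factor of the mitochondrial unfolded protein response, at 418 ± 16.1 normalized counts in mutants and 689 ± 53.7 in controls, and sod-3, for a manganese superoxide dismutase, at 35 ± 27.1 in mutants and 206 ± 179 in controls (SD, n = 3 each), with limma adjusted p of 0.0159 and 0.0464. The sod-3 groups overlapped, with 24, 65.8 and 15.2 in mutants and 164, 402 and 51.5 in controls. Of 14 tested genes for dynamics and carriers, the fusion gene fzo-1 rose (0.65, limma adjusted p 0.0346) and the adenine nucleotide carrier gene ant-1.2 fell (−3.66, limma adjusted p 0.0338). The share that rose on that list, 7.14%, was close to that of all genes. The ant-1.2 change rests on 0, 9.75 and 7.60 normalized counts in mutants and 79.5, 147 and 14.6 in controls. Over the import, ubiquinone, stress and dynamics lists together 10 genes passed, where 18.1% of all genes did. Without mutant replicate 1, 2 or 3 the number was 9, 6 and 1. Without control replicate 1, 2 or 3 it was 2, 0 and 2. Of all 17900 genes, 1509 to 4118 passed when each library was left out.

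**Figure D5:**
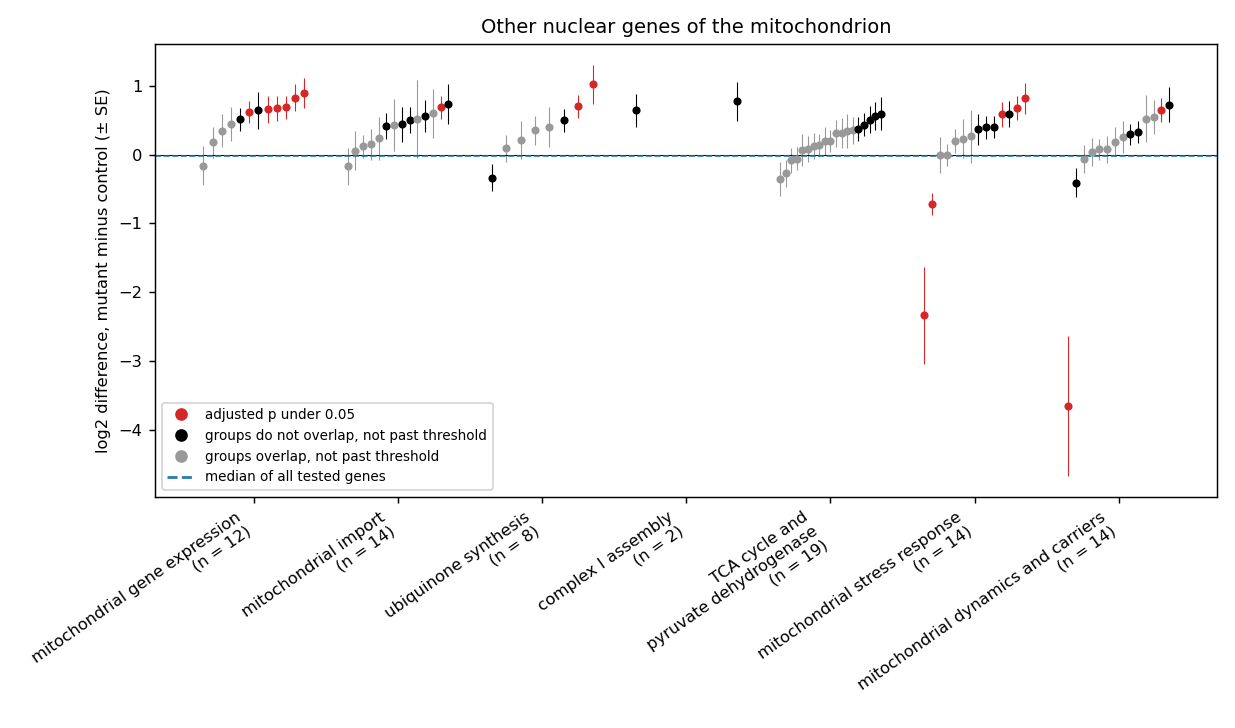
Log2 difference (mutant minus control, on log2 of the normalized count plus 1) with its standard error for each tested gene of other mitochondrial lists, ordered by size within a list. Red points passed an adjusted p of 0.05, black points had groups that did not overlap, and the dashed line is the median of all tested genes. Of 12 genes of mitochondrial gene expression 6 are red, and the lowest points are sod-3 at −2.34 and ant-1.2 at −3.66.

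Cytosolic ribosomal proteins offer a comparison with the other ribosome of the cell. Of 78 such genes 74 were positive with a median of 0.48, 2 rose and 0 fell, and in 11 (14.1%) every mutant library lay above every control library, against 19.5% of all genes. DESeq2 called 8 of them higher, and limma called 14 when mutant replicate 1 was left out and 1 when any other single library was. Without mutant replicate 2 their median was 0.17, against 0.29 for the mitochondrial ribosome. The block fit called 20 of the 78 and 10 of the 67 mitochondrial ribosome genes higher, against 11.1% of all genes. The difference between these lists was not tested.

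Markers of germline and pharynx included genes that rose, and those of neurons and epidermis genes that fell. Of all genes tested 7.56% rose and 10.5% fell, against 11.1% and 15.2% with the block. At an unadjusted p under 0.05, 15.8% of all genes were higher and 19% lower. Of all 17900 genes, 543 to 1603 rose and 870 to 2515 fell when each library was left out. Of 7 tested germline markers 2 rose (mex-5 and gld-1) and 0 fell, and the summed level of the 8 listed genes, none at 0 in every library, was 708 to 1033 normalized counts in mutants and 416 to 525 in controls. With the block 4 germline markers rose, while leaving out control replicate 3 gave 1 and leaving out mutant replicate 3 or either other control gave 0. Of 6 pharynx markers 3 rose (myo-1, myo-2 and tnt-4) and 0 fell, none was at 0, and their sum was 45451 to 57368 in mutants and 22909 to 35685 in controls. For pharynx, leaving out control replicate 1 gave 2 calls, mutant replicate 2 gave 1, and either other control or mutant replicate 3 gave 0. Of 14 neuronal markers 2 fell (egl-3 and rgef-1) and 0 rose, none was at 0, and their sum was 240932 to 371849 in mutants and 456194 to 525998 in controls, with 8 falling under the block, 7 without mutant replicate 1, 1 without control replicate 2 or mutant replicate 3, and 0 without control replicate 1 or 3. Of 10 muscle markers, with a sum of 148371 to 189827 in mutants and 153475 to 171878 in controls, 0 passed limma, edgeR or DESeq2 and 1 had an unadjusted p under 0.05. Of 8 intestine markers, with a sum of 6416 to 13005 in mutants and 11651 to 12375 in controls, 0 passed the same tools and 2 had an unadjusted p under 0.05. Of 6 tested epidermis markers 1 fell in limma (elt-1), and 0 did in 5 of the 6 fits that left out a library. The epidermis markers dpy-7 and dpy-10, low in all libraries, lay above every control in every mutant library, with differences of 1.56 and 2.05 (limma adjusted p 0.0871 and 0.126, DESeq2 adjusted p 0.0246 and 0.0318). For the epidermis list the sum of the 8 listed was 1438 to 1976 in mutants and 1861 to 2123 in controls. No marker of these lists was at 0 in every library. Since these genes act in most cells, the part of cell makeup in the differences given here was not tested, and fewer cells of a type cannot be told apart from less RNA per cell.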

How the data were processed

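The authors deposited 1 table of normalized counts for 3 mutant and 3 control libraries, a depth-normalized signal in which gene counts are divided by a size factor per library. STAR, featureCounts and DESeq2 are named per the submitters' processing notes. Genome build, annotation, use of strand and treatment of multi-mapping reads are not given in the sources used here. Every value was a whole multiple of the worth of 1 read, so reads could be recovered (largest deviation 0.000444 reads). Symbols were matched to the Ensembl WBcel235 annotation, used for names, exon lengths, strand and neighbours only, which held 107 of the 108 members and 96.0% of all symbols.

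After adding 1 and taking log2, mutant and control libraries were compared with limma 3.58.1 (R 4.3.3), allowing a trend of variance with level. P-values were adjusted by Benjamini-Hochberg across 17900 features with a mean of at least 10, at a threshold of 0.05. The fit was tested on simulated data. edgeR 4.0.16 quasi-likelihood and DESeq2 1.42.0 were run on the recovered reads as alternatives. Groups and replicate numbers come from the sample titles. Around the group means, mutant and control libraries of the same number correlated across genes at 0.25, 0.20 and 0.15 for numbers 1, 2 and 3. The numbers were taken to pair the libraries in the fit with a replicate block. Correlations between libraries of different numbers were not computed, so whether another pairing would do as well was not tested.

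Genes named were the members past the threshold, the 2 highest of each role by mean count, the largest difference in each direction, those beside the minimum mean, and up to 3 genes past the threshold for each other list. Others were named after their values were seen. The members and lists were chosen with earlier results of these data known.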

Additional observations from a re-analysis of the deposited data

How the results depend on the processing

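The direction of the median held under every alternative run, from 0.21 without mutant replicate 2 to 0.50 under equal totals, where the median of all genes moved by 0.17. The number of members past the threshold was 7 as reported and 12 under quantile normalization, 19 under equal totals, 13 with the replicate block, 4 without a variance trend, 12 with edgeR, 15 with DESeq2, 0 at an adjusted p under 0.01, and 0 to 8 when each library was left out in turn. All member calls in these fits were higher in mutants. Of all 17900 genes tested, 1353 rose as reported, 1605 under quantile normalization, 964 without a variance trend and 543 to 1603 when each library was left out. Each of the 7 genes was also called in the fits with equal totals, quantile normalization, the block, edgeR and DESeq2. Every mutant library lay above every control for 36 members as deposited and for 57 under equal totals (25.1% of all genes). It was 40 to 56 when each library was left out, where the share of all genes was 22.5% to 26.1%. Members below every control numbered at most 6, without mutant replicate 1, where 29.3% of all genes lay below. They numbered 3 without mutant replicate 2 or control replicate 1, against 25.3% and 23.5% of all genes. These counts under other settings were chosen after seeing the data. For these changes the cause was not tested. Small differences changed sign when a library was left out: mrpl-37 ranged from −0.061 (without control replicate 1) to 0.11, with −0.03 without mutant replicate 2. For cox-4 the range was −0.060 (without control replicate 1) to 0.24, with −0.055 without mutant replicate 2. For cox-5A it was −0.11 (without mutant replicate 2) to 0.26. Over the 7 genes and the alternatives run, the call was lost in 33 of 119 gene and setting pairs, with the same direction each time. The pairing behind the block fit added 6 calls and removed 0. At this depth nuo-3 and cyc-2.2 had at most 7 reads in a library. In the annotation nuo-3 overlaps Y57G11C.1147 on the same strand, and cyc-2.2 overlaps cubn-1 on the opposite strand. Whether the overlaps lowered these counts was not tested.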
